A study of Saccharomyces cerevisiae S288C with 6 samples.

Results

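The small-subunit processome is the large nucleolar particle that forms on the nascent ribosomal RNA precursor and prepares the small ribosomal subunit. It is built around the U3 small nucleolar RNA, which base-pairs with the precursor, and around protein modules named UtpA, UtpB, UtpC and Mpp10 that join it as transcription proceeds. Cleavages inside the particle release the precursor of the small-subunit rRNA, and in budding yeast the genes for these proteins belong to a ribosome biogenesis regulon that is known for tracking growth conditions.

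Here 42 genes of the processome and of the particle that follows it were chosen by name, with earlier results of these data known. No p-value was therefore computed over the set. The genes are described in 6 cultures of the budding yeast Saccharomyces cerevisiae S288C, a haploid reference strain of the alpha mating type. Of 5449 S. cerevisiae genes on the arrays 5356 were tested, and all 42 processome genes were among them, each read by 1 probe set that the array design did not mark as shared between sequences. Their signals on single arrays ran from 761 to 13108, against a background level of 20.0, so none was limited by detection.

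In the first group, 3 cultures received plakortide F acid (PFA), a polyketide endoperoxide that sponges yield and that acts against fungi, at its IC50 of 0.62 ug/ml. In the second group, 3 cultures received the solvent DMSO at 0.25%. All grew in buffered synthetic glucose medium, were treated at an optical density of 0.2 and collected at 0.5. The sources used here do not say how long growth between these densities took, nor how much DMSO was in the PFA cultures. One Affymetrix Yeast Genome 2.0 array was hybridised per culture, and the titles call the 3 samples of a group biological replicates, so p-values measure the spread among them.

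Across the series, 2 arrays of 1 group correlated at 0.991 to 0.994 and 2 arrays of different groups at 0.923 to 0.929 over the genes tested. The 3′ to 5′ signal ratio of ACT1, a measure of RNA quality, was 1.19 to 1.25 in PFA and 1.20 to 1.28 in DMSO. For WBP1 it was 2.25 to 2.34 in PFA and 1.86 to 2.70 in DMSO, and for SPT15 2.52 to 2.89 in PFA and 2.27 to 2.76 in DMSO, so the groups overlapped for all 3 genes. Any part of RNA quality in the results was not tested. All 4 alpha-cell markers examined were well above background in DMSO, with mean signals from 7207 for STE3 to 17847 for MF(ALPHA)1. All 4 were lower in PFA, and by very different amounts. MF(ALPHA)2 was 109-fold lower, with a mean signal of 97.0 in PFA and 10528 in DMSO. SAG1 was 17.3-fold, STE3 3.03-fold and MF(ALPHA)1 1.37-fold lower. The cause of these falls was not tested. The authors' scaling sets each array to 1 average level, so only changes relative to that average were measured.

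Processome transcripts were modestly lower in PFA. By limma with Benjamini-Hochberg adjustment over all genes, 23 of the 42 genes fell, 2 rose and 17 did not pass an adjusted p of 0.05. The share of all genes called was 31.8% lower and 30.3% higher. The median log2 change was -0.28 over the 42 genes and -0.02 over all genes tested, and the quartiles were -0.42 and -0.06 for the 42 genes, against -0.32 and 0.33 for all genes. The falls were small: among the 23 genes called lower they ran from 1.13-fold to 1.92-fold with a median of 1.33-fold. Falls reached 1.5-fold in 5 of the 42 genes, IMP4, UTP23, NOC4, EMG1 and UTP11. That share was close to the 10.4% of all genes that fell as far. In 28 of the 42 genes all 3 PFA signals lay below all 3 DMSO signals, and in 2 they lay above, where 34.2% of all genes were separated downwards and 32.4% upwards. The processome genes are brighter than most: among the 2724 genes in the brighter part of the array (mean signal over the median yeast probe set), 39.6% were called lower, and 22 of the 39 processome genes that passed this limit.

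**Figure D1:**
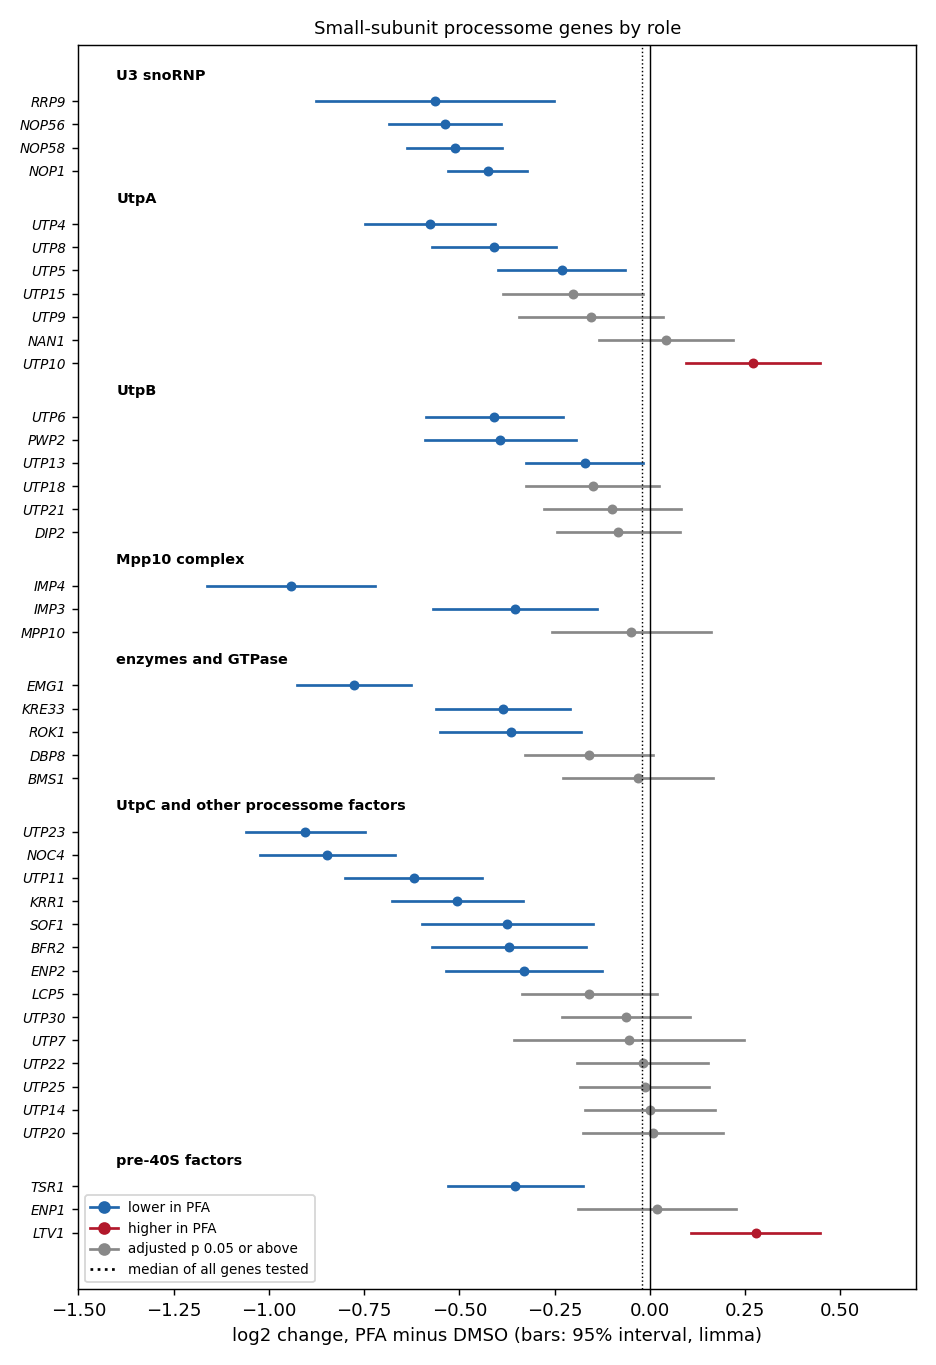
Log2 change in signal (PFA minus DMSO, horizontal axis) of each of the 42 genes, grouped by role, with its 95% interval from limma (n = 3 arrays a group). All 4 U3 proteins lie left of 0, UtpA spans from UTP4 (-0.58) to UTP10 (0.27), and IMP4, UTP23, NOC4 and EMG1 have the lowest values.

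All 4 U3 snoRNP genes of the set fell, where 31.8% of all genes were called lower. Nop1 (fibrillarin, the methyltransferase), Nop56 and Nop58 are core proteins of every box C/D small nucleolar RNP, together with Snu13, and Rrp9 is specific to U3. SNU13, which was counted with the other 90S factors and is named after its value was seen, fell too, with a smaller value (log2 -0.14 ± 0.05, SE; limma adjusted p = 0.0166). NOP1 (YDL014W) had signals of 9714, 9246 and 9453 in PFA, against 12408, 13108 and 12648 in DMSO, a 1.34-fold fall (log2 -0.43 ± 0.05, SE; limma adjusted p = 8.38e-06). NOP58 (YOR310C) had 6385, 6612 and 6761 in PFA, against 9054, 9980 and 9164 in DMSO, 1.43-fold lower. Every PFA signal of both genes lay below every DMSO signal. NOP56 (YLR197W) had 4279, 4158 and 3909 in PFA, against 5591, 6070 and 6271 in DMSO, a 1.45-fold fall. RRP9 (YPR137W) had 901, 873 and 1358 in PFA, against 1376, 1615 and 1551 in DMSO, 1.48-fold lower (log2 -0.56 ± 0.14, SE; limma adjusted p = 0.00443). PFA replicate 3 stood close to the lowest DMSO array for RRP9, while the other PFA arrays were far below it.

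UtpA, the module that binds the 5′ end of the precursor first, was mixed. Of its 7 genes 3 (42.9%) fell, 1 (14.3%) rose and 3 did not pass, where 31.8% of all genes fell and 30.3% rose. The median log2 change of the module was -0.20. UTP4 (YDR324C), which encodes a WD-repeat subunit, had 1012, 924 and 894 in PFA, against 1395, 1423 and 1401 in DMSO, 1.49-fold lower (log2 -0.58 ± 0.08, SE; limma adjusted p = 4.15e-05). UTP8 was 1.33-fold lower and UTP5, another WD-repeat subunit, 1.17-fold lower. UTP10 (YJL109C), encoding the large HEAT-repeat subunit, went the other way, with 1902, 1743 and 2019 in PFA, against 1626, 1504 and 1557 in DMSO. All its PFA signals were above all its DMSO signals, a 1.21-fold rise (log2 0.27 ± 0.08, SE; limma adjusted p = 0.0108). The 95% interval of UTP10, 0.10 to 0.45, did not meet that of UTP4, -0.75 to -0.41. These genes were picked as the highest and lowest of the module, so a gap between their intervals was likely beforehand. UTP15 (log2 -0.20, limma adjusted p = 0.0553), UTP9 (-0.16, adjusted p = 0.139) and NAN1 (0.04, adjusted p = 0.664) did not pass. The rise of UTP10 lost its call without DMSO replicate 2 (limma adjusted p = 0.0524). UTP5 lost its call without DMSO replicate 2, PFA replicate 1 or PFA replicate 2 (limma adjusted p = 0.0791, 0.0519 and 0.0957). UTP15 passed as lower without DMSO replicate 1 or PFA replicate 3 (adjusted p = 0.0250 and 0.0384), and UTP9 without PFA replicate 3 (adjusted p = 0.0352).

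UtpB, the second early module, held 3 genes (50%) that fell and 3 that did not pass, where 31.8% of all genes fell. The median log2 change of the module was -0.16. UTP6 (YDR449C), which encodes a HAT-repeat subunit, had 845, 812 and 812 in PFA, against 998, 1131 and 1154 in DMSO, 1.33-fold lower (log2 -0.41 ± 0.08, SE; limma adjusted p = 0.000959). PWP2 (YCR057C), for a WD-repeat scaffold subunit, had 1248, 1106 and 1348 in PFA, against 1711, 1501 and 1638 in DMSO, 1.31-fold lower. Neither gene's groups overlapped. UTP13 was 1.13-fold lower with a limma adjusted p of 0.0499, and this call was lost in 11 of 16 alternatives, each single-array omission among them (adjusted p = 0.0740 to 0.114 over these 6). UTP18, UTP21 and DIP2 had log2 changes of -0.15, -0.10 and -0.08 (limma adjusted p = 0.123, 0.321 and 0.356). DIP2 (YLR129W), the smallest change of the module, had 1775, 1673 and 1783 in PFA, against 1804, 1803 and 1932 in DMSO, with the groups apart by little.

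In the Mpp10 complex, whose Imp3 and Imp4 proteins help U3 pair with the precursor, the 3 genes differed widely. IMP4 (YNL075W) had the largest fall of the 42 genes, with 1272, 1036 and 1282 in PFA, against 2081, 2512 and 2291 in DMSO. The means were 1197 ± 139 in PFA and 2295 ± 215 in DMSO (SD, n = 3 each), a 1.92-fold fall (log2 -0.94 ± 0.10, SE; limma adjusted p = 5.91e-06). IMP3 (YHR148W) had 1928, 1748 and 1792 in PFA, against 1992, 2621 and 2413 in DMSO, 1.28-fold lower (limma adjusted p = 0.00779), and DMSO replicate 1 lay just above the highest PFA array. MPP10 (YJR002W), for the scaffold protein of the complex, had 1384, 1263 and 1516 in PFA, against 1279, 1489 and 1539 in DMSO. Those groups overlapped, and the log2 change was -0.05 with a 95% interval of -0.26 to 0.16 (limma adjusted p = 0.675).

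**Figure D2:**
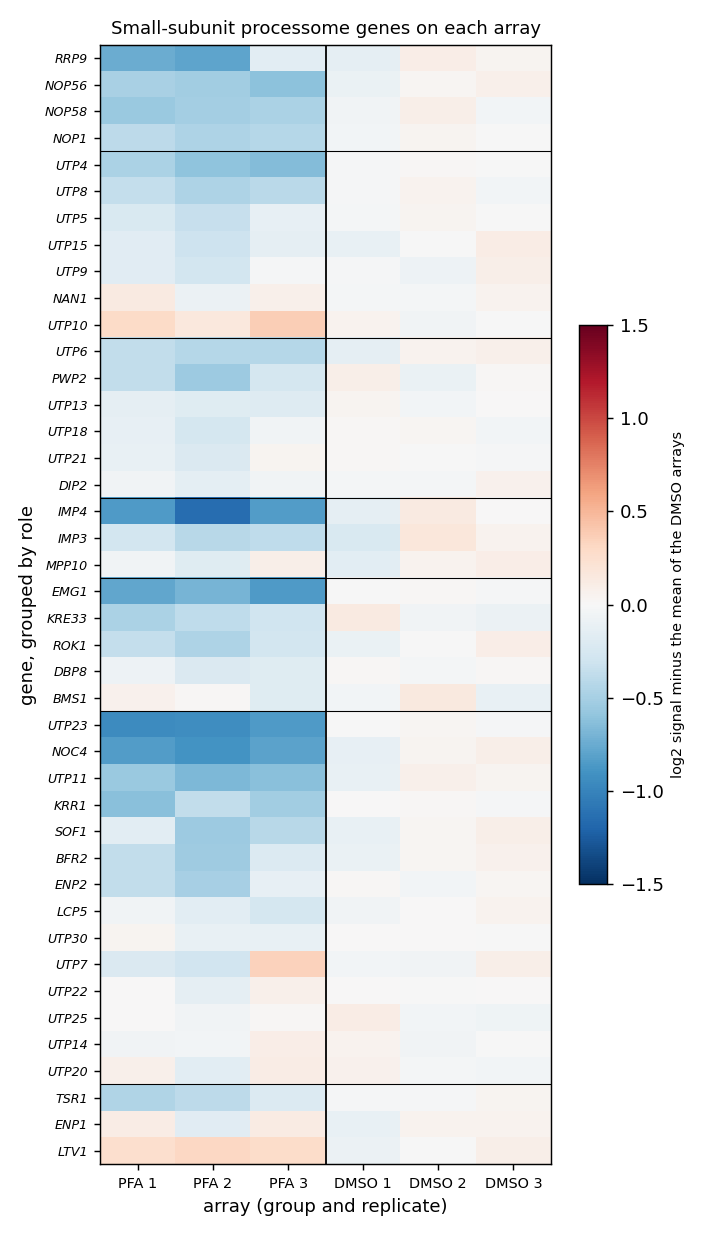
Log2 signal of each gene (rows, grouped by role in the order U3 snoRNP, UtpA, UtpB, Mpp10 complex, enzymes, other factors, pre-40S factors) on each array (columns, 3 PFA then 3 DMSO), as the difference from the mean of the DMSO arrays of that gene. Blue is lower and red higher; PFA replicate 2 is the lowest PFA array in 29 of the 42 rows.

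Among the genes for enzymes and the GTPase of the particle, 3 of 5 (60%) fell, where 31.8% of all genes were called lower. EMG1 (YLR186W), encoding the methyltransferase that modifies a pseudouridine of small-subunit rRNA, had 2388, 2513 and 2263 in PFA, against 4071, 4138 and 4044 in DMSO. This was a 1.71-fold fall (log2 -0.78 ± 0.07, SE; limma adjusted p = 1.01e-06), with a gap between the groups many times the spread within them. KRE33, for the RNA acetyltransferase of the same rRNA, was 1.31-fold lower, and ROK1, for a DEAD-box helicase, 1.29-fold lower (limma adjusted p = 0.00124 and 0.00248). DBP8, for another DEAD-box helicase, had a log2 change of -0.16 (limma adjusted p = 0.0893). BMS1 (YPL217C), for the GTPase, had 2883, 2782 and 2426 in PFA, against 2677, 3047 and 2540 in DMSO, with overlapping groups and a log2 change of -0.03 (limma adjusted p = 0.788).

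The remaining processome factors split evenly, with 7 of 14 (50%) lower, 0 higher and 7 not passed, and a median log2 change of -0.24. Of all genes, 31.8% were called lower and 30.3% higher. UTP23 (YOR004W), for a PIN-domain-like protein needed to release the snR30 small nucleolar RNA, had 1327, 1338 and 1418 in PFA, against 2530, 2603 and 2507 in DMSO. The means were 1361 ± 49.4 in PFA and 2547 ± 50.1 in DMSO (SD, n = 3 each), 1.87-fold lower (log2 -0.90 ± 0.07, SE; limma adjusted p = 3.98e-07). It had the smallest adjusted p of the 42 genes. NOC4 (YPR144C), whose protein pairs with Nop14, had 885, 849 and 901 in PFA, against 1448, 1618 and 1676 in DMSO, a 1.80-fold fall. UTP11 (YKL099C) had 829, 761 and 786 in PFA, against 1123, 1279 and 1252 in DMSO, a 1.54-fold fall. The groups of both genes were well separated. KRR1, encoding a KH-domain RNA-binding protein, fell 1.42-fold, SOF1, for a WD-repeat protein, 1.30-fold, BFR2 1.29-fold and ENP2, for another WD-repeat protein, 1.26-fold.

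The 7 that did not pass in this set had log2 changes from -0.16 for LCP5 to 0.01 for UTP20. UTP14 (YML093W), whose protein activates the helicase Dhr1, had 1442, 1463 and 1605 in PFA, against 1559, 1448 and 1497 in DMSO. Its groups overlapped fully, with a log2 change of 0.00 (95% interval -0.17 to 0.17; limma adjusted p = 0.992). UTP20 (YBL004W), for a large HEAT-repeat scaffold, had 2761, 2339 and 2831 in PFA, against 2740, 2573 and 2548 in DMSO. UTP22, of the UtpC module, and UTP25, for a helicase-like protein, had log2 changes of -0.02 and -0.01 (limma adjusted p = 0.855 and 0.890). UTP30, whose protein is dispensable for growth, had -0.06 (adjusted p = 0.504). UTP7 (YER082C), for a WD-repeat protein, had 1044, 995 and 1542 in PFA, against 1178, 1176 and 1296 in DMSO, so that PFA replicate 3 was above and the other PFA arrays below every DMSO array. Without that array UTP7 passed as lower (log2 -0.25, limma adjusted p = 0.0213), where with all arrays it did not (log2 -0.05, adjusted p = 0.748).

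**Figure D3:**
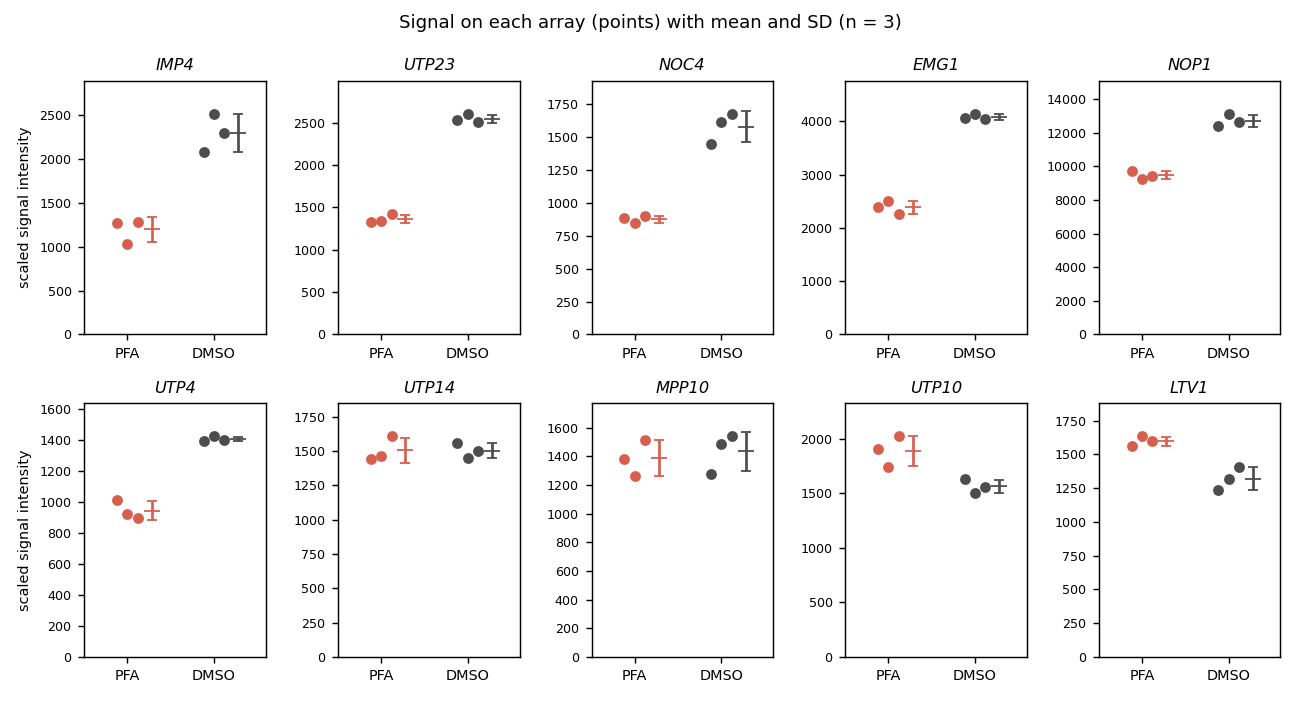
Scaled signal intensity (vertical axis, starting at 0) of 10 genes on each PFA and DMSO array, with the mean and SD beside the points (n = 3 arrays a group). PFA points lie below all DMSO points for IMP4, UTP23, NOC4, EMG1, NOP1 and UTP4, mix with them for UTP14 and MPP10, and lie above them for UTP10 and LTV1.

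The pre-40S factors, found in the particle that follows the processome, had 1 gene lower, 1 higher and 1 that did not pass. Each call was thus 33.3% of the 3 genes, close to the 31.8% lower and 30.3% higher of all genes. TSR1 (YDL060W), for a GTPase-like protein that blocks early joining of the large subunit, had 1740, 1814 and 2065 in PFA, against 2361, 2350 and 2447 in DMSO, 1.28-fold lower (limma adjusted p = 0.00228). LTV1 (YKL143W), for a factor that guides Rps3 into the small subunit, had 1564, 1632 and 1596 in PFA, against 1238, 1314 and 1405 in DMSO. It rose 1.21-fold (log2 0.28 ± 0.08, SE; limma adjusted p = 0.00777), and its groups did not overlap. ENP1 (YBR247C), which is present in both particles, had 1568, 1291 and 1576 in PFA, against 1343, 1511 and 1509 in DMSO, with a log2 change of 0.02 (adjusted p = 0.872). UTP10 and LTV1 were thus the 2 genes called higher.

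For the 17 genes that did not pass, the intervals give bounds on their changes. Their 95% intervals ran from -0.39 to 0.25 on the log2 scale at the extremes, and all 17 excluded a fall of 1.5-fold (log2 -0.58). The same fit picked these genes for small changes, so that outcome was largely fixed. The limit is also wide, since falls reached 1.5-fold in only 5 of the 23 genes called lower. In 5 of them the groups did not overlap although the adjusted p missed the threshold, and 13 of the 17 had a negative change. Over all genes tested, called or not, the groups did not overlap in 66.6% and 51.7% had a negative change. Median spread within a group was 0.08 (SD of log2 signal) for the 42 genes and 0.10 for all genes tested.

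Replicates differed slightly for the set as a whole. Relative to the mean of the DMSO arrays, the median of the 42 genes was -0.22, -0.35 and -0.19 on the log2 scale in PFA replicates 1, 2 and 3, against -0.03, 0.01 and 0.02 in DMSO replicates 1, 2 and 3. PFA replicate 2 was thus lowest, with 8 of 42 genes above their own PFA mean, against 29 and 27 in PFA replicates 1 and 3. Medians over all genes tested were -0.02, -0.03 and 0.00 on the same PFA arrays. Without PFA replicate 2 the median log2 change of the 42 genes was -0.21 and 21 genes were called lower.

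Neighbouring parts of the ribosome assembly pathway were read in the same fit, in which 31.8% of all genes were called lower and 30.3% higher. Of 45 other factors of the 90S particle, the processome with bound precursor, and of the small-subunit path, 30 (66.7%) fell and 2 (4.44%) rose. Their median log2 change was -0.34. The list also counts GAR1, NHP2, CBF5 and NOP10, all lower, for H/ACA small nucleolar RNP proteins, which serve beyond the small-subunit path. They were named after their values were seen. FAF1 was 2.71-fold lower, FYV7 2.09-fold, RRT14 1.81-fold and FCF1, for the nuclease-fold protein Utp24, 1.72-fold. The 2 that rose, MRD1 and CMS1, had log2 changes of 0.21 and 0.29 and were named after their values were seen. The list of large-subunit assembly factors had 40 of 70 (57.1%) lower and 2 (2.86%) higher, with a median of -0.29. The 2 were SPB4, for a helicase, and NPA3, whose protein is known for RNA polymerase II assembly, both also named after their values were seen. MRT4, ALB1, MAK16 and NIP7 led, 2.33-fold, 2.28-fold, 2.09-fold and 1.95-fold lower. Small-subunit ribosomal protein genes, the products assembled by the particle, had 50 of 52 (96.2%) lower and 0 higher, with a median of -0.30. After quantile normalization 34 of the 52 were lower and the median was -0.17. RPS28B was 2.16-fold and RPS22A 1.72-fold lower, and RPS4B and RPS14B, named after their values were seen, did not pass. Many of these genes have near-identical copies, which a probe set may not tell apart. Differences between these lists and the processome genes were not tested.

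RNA polymerase I makes the precursor on which the processome forms, and polymerase III makes 5S rRNA and transfer RNAs. Of 26 genes for their subunits and polymerase I factors, 12 (46.2%) fell and 3 (11.5%) rose, where 31.8% of all genes fell and 30.3% rose, with a median log2 change of -0.19. RRN9 was 1.62-fold, RPC31 1.62-fold and RPA34 1.59-fold lower. RRN3 (YKL125W), for the factor that makes polymerase I competent to initiate, rose 1.79-fold (log2 0.84, limma adjusted p = 2.16e-06), where 12 of the 26 genes fell.

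**Figure D4:**
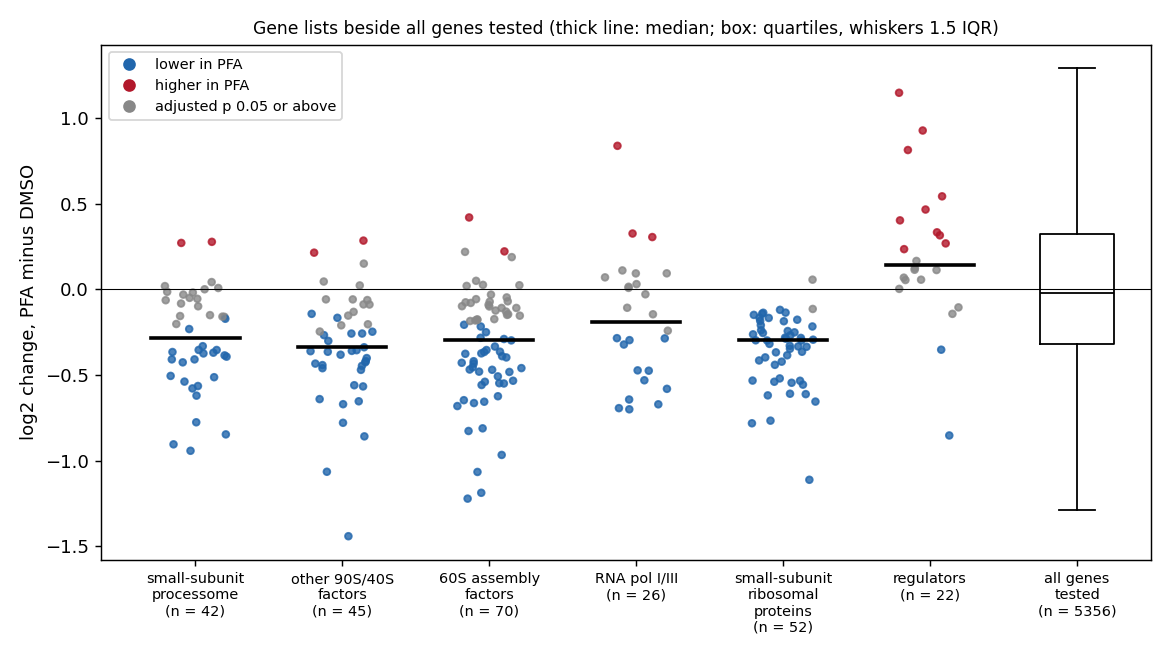
Log2 change in signal (PFA minus DMSO, vertical axis) of each gene in the processome set and in 5 other lists (points, with a thick line at the median), beside a box plot of all 5356 genes tested. Medians are -0.28 for the processome genes, -0.34 for other 90S and 40S factors, -0.29 for large-subunit assembly factors, -0.30 for small-subunit ribosomal proteins and 0.15 for the regulators, whose points spread above 0.

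Of 22 regulators of ribosome production 10 (45.5%) rose and 2 (9.09%) fell, beside the 30.3% and 31.8% of all genes. Their median log2 change was 0.15, which was 0.08 after centring each array on its median, with 9 higher and 2 lower. Some of the 22 act on ribosomal protein genes or polymerase III, not on the processome genes. Dot6, Tod6 and Stb3 are repressors that bind motifs of ribosome biogenesis promoters, and Sfp1 is an activator of the same genes. STB3 (YDR169C) rose 1.38-fold, TOD6 (YBL054W) 1.32-fold and DOT6 (YER088C) 1.24-fold (limma adjusted p = 0.00123, 0.00600 and 0.0111). The activator gene SFP1 (YLR403W) rose as well, 1.76-fold (limma adjusted p = 2.67e-06). IFH1, for a coactivator of ribosomal protein genes, rose 1.90-fold and CRF1, for a corepressor of the same genes, 2.22-fold, CRF1 at a mean DMSO signal of 57.8. MAF1, for the repressor of polymerase III, rose 1.26-fold and the kinase gene RIM15 1.46-fold. TOR2 and CYR1, for a growth-control kinase and for adenylate cyclase, rose 1.18-fold and 1.20-fold. RAS1 fell 1.81-fold and ABF1, for a general regulatory factor, 1.28-fold. TOR1 and SCH9, of the growth-control kinase pathway, had log2 changes of 0.17 and 0.11 (limma adjusted p = 0.163 and 0.304). These are transcript levels, and the activity of the proteins was not measured.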

How the data were processed

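Total RNA of 6 cultures was labelled with biotin and hybridised to 1 array each. The authors deposited linear signal intensities, made with GCOS 1.1 per the submitters' processing notes. How probes were summarised is not given in these sources. A mean of the deposited intensities trimmed by 2% at each end was 1000.5 to 1000.6 on all arrays, so the authors had scaled them, and no scaling was added.

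Of 10928 probe sets 5498 matched a single S. cerevisiae gene by Entrez ID in the platform's annotation and RefSeq's gene list (assembly R64, used for names and neighbours), with 12 symbols updated. Background was set from 1746 annotated probe sets that matched no gene of RefSeq's list and were taken as another organism's. It was percentile 95 of their mean log2 signals, and 93 genes below it were left out. The brightest probe set stood for a gene.

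Log2 signals, with no pseudocount, were compared in R 4.3.3 by the limma 3.58.1 package: lmFit, then eBayes with its trend option, two-sided. Adjustment was Benjamini-Hochberg over all genes, with a threshold of 0.05. Folds are ratios of geometric means. Figures used matplotlib 3.10.9 in Python 3.11.15. The procedure was tested on simulated data, where 83% of log2 changes of 0.585, 92.9% of changes of 1 and 0.175% of unchanged genes were called. Smaller changes, which most processome genes showed, were not simulated, and far fewer genes changed than were called here.

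The members and lists were chosen with earlier results of these data known. All 42 members, all regulators and up to 4 called genes with the largest change of each other list could be named. HAS1 was counted with the 90S factors alone. Some listed genes outside the 42 are not reported here. Promoter sequences were not used here. Alternatives were quantile normalization, median centring, pseudocounts of 16 and 64, a stricter filter or none, eBayes without trend, a replicate block, gene-specific or all probe sets, and omission of each array.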

Additional observations from a re-analysis of the deposited data

How the results depend on the processing

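Of 42 processome genes 33 kept their call in each of the 16 alternatives that tested them, among them 21 of the 23 called lower, and 0 of 669 recomputed values reversed a call. The count called lower ran from 21 to 25 over omission of single arrays and was 26 after quantile normalization and 28 after centring each array on its median, which moved the median of all genes to -0.08. The count called higher ran from 1 (without DMSO replicate 2) to 2, and the median log2 change of the 42 genes from -0.31 to -0.21 over omission of single arrays, with -0.28 after quantile normalization and -0.34 after centring. The stricter filter on low values, which by construction tests fewer genes, called 1080 of all genes lower and 813 higher, against 1701 and 1622. Replicate numbers did not pair the arrays consistently: deviations of same-numbered arrays from their group means correlated at -0.05, -0.09 and 0.16. PFA replicate 1 correlated best with DMSO replicate 2 (0.13) and PFA replicate 2 with DMSO replicate 1 (0.16). PFA replicate 3 correlated best with the same-numbered DMSO replicate 3 (0.16). A block by pairs of other numbers was not tested. With a replicate block 23 genes were lower and 2 higher (median -0.28). Under it UTP15 passed as lower (limma adjusted p = 0.0427) and UTP13 did not pass (0.0528), and no other call of the 42 changed. UTP15 also passed in 5 other alternatives, and DBP8, LCP5, UTP9 and UTP18 passed as lower after centring (limma adjusted p = 0.0225, 0.0315, 0.0405 and 0.0326), DBP8 and LCP5 also after quantile normalization. The cause was not tested. With 6 arrays, precision is limited by their number; signal was far above background for the 42 genes.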

Other observations

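Genes next to the 42 processome genes on the chromosomes gave a comparison of position. By the gene order of the RefSeq table, 81 neighbours outside the set were tested, of which 22 were lower and 23 higher in PFA. Their median change was 0.00 on the log2 scale. Of all genes tested, 31.8% were lower and 30.3% higher. No 2 of the 42 genes were neighbours of each other, and 9 neighbours belonged to the other lists.

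Among those 9, RPS18A, transcribed away from UTP6, had a log2 change of -0.42 beside -0.41 for UTP6. RRP15, for a large-subunit assembly factor, lies end to end with NOC4 and had -0.62 beside -0.85. LTV1 rose (log2 0.28) while RPC25, for a polymerase III subunit and transcribed away from it, fell by 0.47 on the log2 scale. UTP13 (-0.17) lies between RSA3 (-0.51) and IFH1 (0.93). These pairs were chosen after their values were seen, and no relation between neighbours was tested.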
